A study of Homo sapiens and Mus musculus with 13 samples.

Results

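Levels of 10 marker genes of basal and myoepithelial mammary cells were described in 6 mouse mammary tumors: Krt5, Krt14, Krt15, Krt17, Trp63, Oxtr, Acta2, Tagln, Myh11 and Cnn1. The 10 genes are markers of 1 epithelial layer taken from a table of 55228 gene symbols, and they were chosen by their FPKM in these 6 tumors, with the difference between genotypes already known. Their own levels are therefore given as a description with no test. All 10 passed the filter on low values, a mean of at least 0.5 FPKM (read fragments scaled to exon length and library size), which 17328 genes passed, and each was detected in every tumor. The tumors came from 3-month-old female mice that carried the MMTV-PyVT transgene, in which the mouse mammary tumor virus promoter drives the polyoma middle T oncogene in mammary epithelium, on a hybrid C57BL/6N and FVB/N background. Of these, 3 tumors were Trim11+/+ and 3 were Trim11+/-, with exons 2 to 6 of 1 Trim11 copy deleted in every tissue by CRISPR/Cas9. Trim11 encodes an E3 ubiquitin ligase, and the study asked what its loss does to breast cancer. Each tumor was 1 library, nothing in the labels says that tumors with the same number belong together, and the tumors were bulk tissue. The study also sequenced 7 libraries of MDA-MB-231, a human triple-negative breast cancer cell line, and these serve below for the human orthologs. They came from CRISPR/Cas9 lines: 1 Control, 2 with a TRIM11 guide (TRIM11-KD), 2 with a KDM5C guide (KDM5C-KD) and 2 with both (DKD). KDM5C is a histone H3K4 demethylase that the paper reports as a target of TRIM11.

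The mammary duct has an inner luminal and an outer basal layer. Basal cells carry the keratins K5 and K14, K15 and K17 in part of them, and the transcription factor p63 that maintains stratified and basal epithelia. In the mature gland most basal cells are myoepithelial: they build smooth muscle actin, myosin and their partners, and contract when oxytocin binds its receptor. MMTV-PyVT tumors arise mainly from luminal cells, and the myoepithelial layer around early lesions is lost as they progress.

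Keratin genes lie in families of close relatives, and the reads behind a keratin value must be told apart from those of a neighbor. Of every pair of a member and a relative compared over windows of 150 coding bases, the length of 1 sequenced read, Krt14 with Krt16 was among the closest, at 1 mismatch. Krt14, Krt15 and Krt17 lie in 1 cluster on the minus strand, between chr11:100131758 and chr11:100261029. The 2 windows are printed 5′ to 3′ from the mm10 transcripts, and the capital letter marks the base that differs. The Krt14 window lies in exon 1 at chr11:100207020-100207169 and the Krt16 window in exon 1 at chr11:100248479-100248628, both on the minus strand.
Krt14: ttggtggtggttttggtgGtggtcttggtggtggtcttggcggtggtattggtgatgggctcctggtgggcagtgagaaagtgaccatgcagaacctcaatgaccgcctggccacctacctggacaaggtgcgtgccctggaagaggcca
Krt16: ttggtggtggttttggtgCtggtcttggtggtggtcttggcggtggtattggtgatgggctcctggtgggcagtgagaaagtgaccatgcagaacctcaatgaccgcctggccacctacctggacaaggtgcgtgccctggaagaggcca
The longest run shared without a mismatch was 134 bases for Krt14 and Krt16. For Krt5 and Krt6a, also at 1 mismatch, it was 140 bases, and no window was identical in any pair of member and relative. Krt14 and Krt17, both members, came within 2 mismatches of each other. Krt16 stood between 0 and 1.21 FPKM in the 6 tumors, far below the 23.6 FPKM of the lowest Krt14 value. Krt6a stood between 0.0407 and 1.69 FPKM, and the lowest Krt5 value was 7.14 FPKM. Krt16 and Krt6a are named here for this sequence comparison.

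Trim11 itself was measured at 35.8, 36.3 and 39.2 FPKM in Trim11+/+ tumors 1, 2 and 3 and at 24.0, 22.8 and 22.9 FPKM in Trim11+/- tumors 1, 2 and 3. The Trim11+/- mean was 0.626 of the Trim11+/+ mean, with no overlap (log2 difference -0.65, SE 0.085, adjusted p = 0.199 in limma's test across all genes). The libraries held 8793199 to 11117125 recovered reads, fewest in Trim11+/- tumor 2. Across all genes tested, 1 of 17328 (0.00577%) passed an adjusted p of 0.05 in limma and 1202 had an unadjusted p under 0.05. At a fold of 1.5 with an unadjusted p under 0.05, 625 genes (3.61%) differed, 324 lower and 301 higher in Trim11+/-. The SD of the deviations of a library from its group mean lay between 0.253 and 0.348 on the log2 scale, and that of Trim11+/+ tumor 1, which matters below, was 0.315.

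Krt5, the type II partner of K14 in basal cells, was at 104.6, 29.2 and 62.5 FPKM in Trim11+/+ tumors 1, 2 and 3 and at 18.8, 7.14 and 16.9 FPKM in the Trim11+/- tumors. The 3 Trim11+/- values all lay below the lowest Trim11+/+ value, and the means were 65.5 ± 37.8 and 14.3 ± 6.24 FPKM (SD, n = 3 each), a ratio of 0.218. Krt5 had the lowest ratio of the 10 members. Krt14, the basal type I keratin, was at 59.2, 53.2 and 91.1 FPKM in Trim11+/+ and at 48.3, 23.6 and 36.6 FPKM in Trim11+/- tumors. The groups again did not overlap, but the gap was narrow, from 48.3 to 53.2 FPKM, and the ratio of means was 0.533. Fewer basal cells and less keratin RNA per cell cannot be told apart in these bulk tumors, and the same holds for every gene below.

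Krt17, a keratin of basal and stressed epithelium, was at 13.8, 6.98 and 15.7 FPKM in Trim11+/+ and at 6.79, 4.18 and 6.66 FPKM in Trim11+/- tumors. Its ratio of means was 0.483, and the groups came close without overlap, at 6.98 FPKM in Trim11+/+ tumor 2 and 6.79 FPKM in Trim11+/- tumor 1. Krt15, a keratin of basal progenitors and of the hair follicle bulge, was at 25.3, 2.50 and 5.81 FPKM in Trim11+/+ and at 1.63, 1.48 and 7.43 FPKM in Trim11+/- tumors. Here the groups overlapped: Trim11+/- tumor 3 was second of the 6, and the ratio of 0.313 became 0.845 without Trim11+/+ tumor 1. Krt15 was the keratin with the widest span, 17.1-fold from lowest to highest tumor, against 3.77-fold for Krt17.

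Trp63, which encodes p63, was at 4.49, 4.72 and 5.47 FPKM in Trim11+/+ and at 3.67, 1.90 and 2.46 FPKM in Trim11+/- tumors. It was the most even member within Trim11+/+, at 4.90 ± 0.513 FPKM (SD, n = 3) against 2.68 ± 0.903 FPKM in Trim11+/- (SD, n = 3), and the groups did not overlap. Oxtr, the oxytocin receptor, was at 10.6, 7.31 and 4.16 FPKM in Trim11+/+ and at 2.69, 2.59 and 3.01 FPKM in Trim11+/- tumors. All 3 Trim11+/- tumors stood within 2.59 to 3.01 FPKM and below every Trim11+/+ tumor, while the Trim11+/+ tumors ranged widely. The ratio of means was 0.546 for Trp63 and 0.375 for Oxtr, and without Trim11+/+ tumor 1 it was 0.525 and 0.481.

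The contractile genes had another pattern. Acta2, smooth muscle actin, was at 138.0, 36.5 and 21.6 FPKM in Trim11+/+ and at 17, 23.9 and 27.0 FPKM in Trim11+/- tumors. A single tumor, Trim11+/+ 1, stood apart, and the other 5 tumors lay between 17 and 36.5 FPKM with the genotypes overlapping. Tagln, the actin-binding transgelin, was at 63.2, 24.7 and 18.6 FPKM in Trim11+/+ and at 16.2, 20.7 and 29.1 FPKM in Trim11+/- tumors. Myh11, smooth muscle myosin heavy chain, was at 13.5, 3.13 and 1.23 FPKM in Trim11+/+ and at 1.23, 2.18 and 1.79 FPKM in Trim11+/- tumors. Cnn1, calponin, was at 16.5, 3.45 and 1.09 FPKM in Trim11+/+ and at 0.592, 2.29 and 3.33 FPKM in Trim11+/- tumors. In each of the 4 genes Trim11+/+ tumor 1 was highest, at 2.17 to 4.79 times the next tumor, and the lowest tumor was Trim11+/- 1. Cnn1 rested on the fewest reads, 18 in its lowest tumor.

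**Figure D1:**
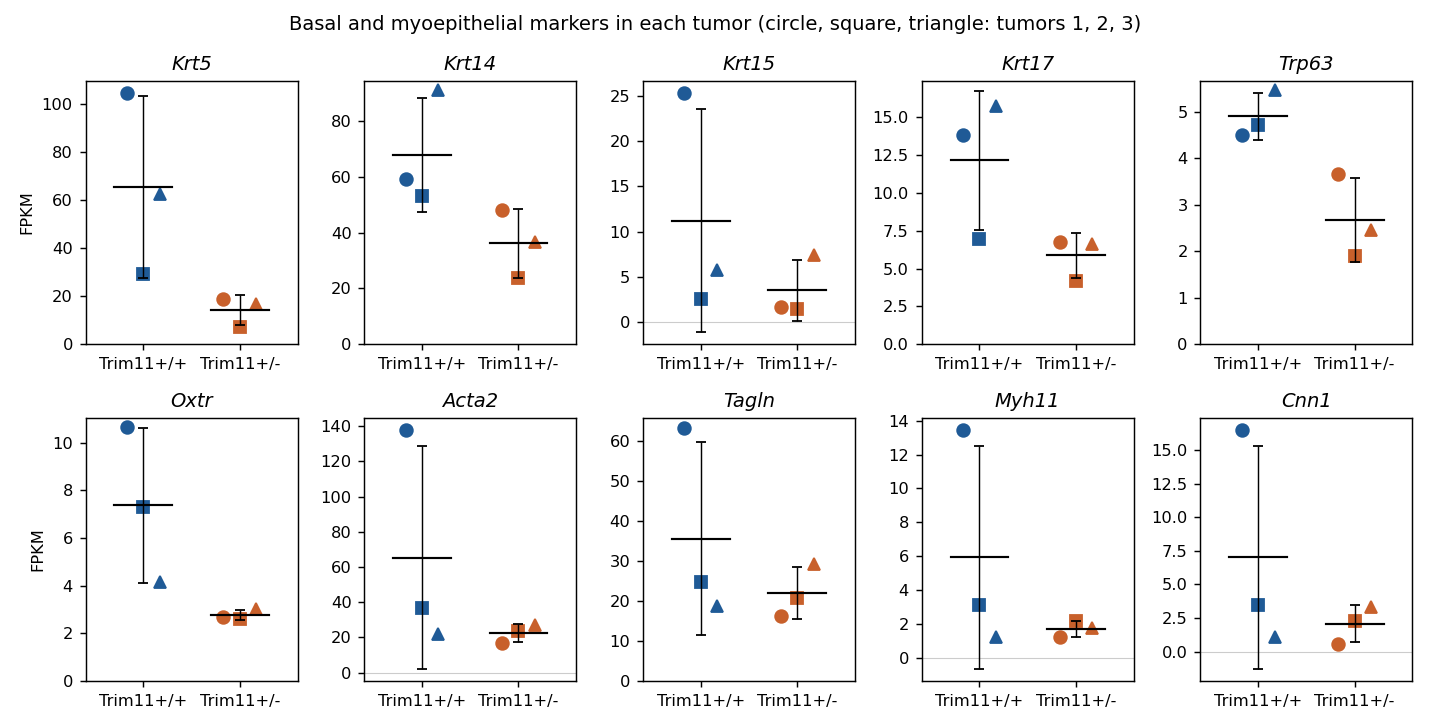
Level of each of the 10 members in FPKM (vertical axis) in the Trim11+/+ (blue) and Trim11+/- (orange) tumors, with 1 point per tumor, a line at the mean and bars of 1 SD (n = 3). Krt5, Krt14, Krt17, Trp63 and Oxtr show no overlap of the genotypes, and in Acta2, Tagln, Myh11 and Cnn1 the circle of Trim11+/+ tumor 1 stands above the other 5 tumors.

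Over the 10 members, 10 had a lower mean in Trim11+/- and in 10 the ratio of means was at or under 1/1.5, which 6.9% of all genes tested reached. In 5 of 10 every Trim11+/- tumor lay below every Trim11+/+ tumor, against 6.78% of all genes tested, and 0 of 10 were above throughout, against 6.6%. These counts restate what the members were chosen for. The median log2 difference of the members was -0.93 and that of all genes tested -0.0048. Whether all 10 went together depended on 1 tumor: Trim11+/+ tumor 1 was the highest of the 6 in 7 of 10 members, against 21.5% of all genes tested. Without it, 9 of 10 members still had a lower mean in Trim11+/-, but only 5 of 10 were past the fold (8.09% of all genes tested), and the median log2 difference was -0.56.

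By kind of gene, grouped with these values in view, 3 of 4 keratins had no overlap, and their median ratio was 0.398 with all tumors and 0.509 without Trim11+/+ tumor 1. Trp63 and Oxtr both had no overlap, with a median ratio of 0.460 and 0.503. Among the contractile genes, 0 of 4 were without overlap, and the median ratio was 0.320 with all tumors and 0.853 without Trim11+/+ tumor 1. Krt15, a keratin, overlapped as the contractile genes did, and Oxtr, which serves contraction, did not. Without that tumor 0 of 4 contractile genes were past the fold, and the ratios ran from 0.779 for Acta2 to 1.01 for Tagln. The same 5 members (Krt5, Krt14, Krt17, Trp63 and Oxtr) had no overlap with and without that tumor, the second of which 12.2% of all genes tested also met. At the low end, Trim11+/- tumor 2 was the lowest of the 6 tumors for 4 of 4 keratins, for Trp63 and Oxtr, and for 0 of 4 contractile genes.

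**Figure D2:**
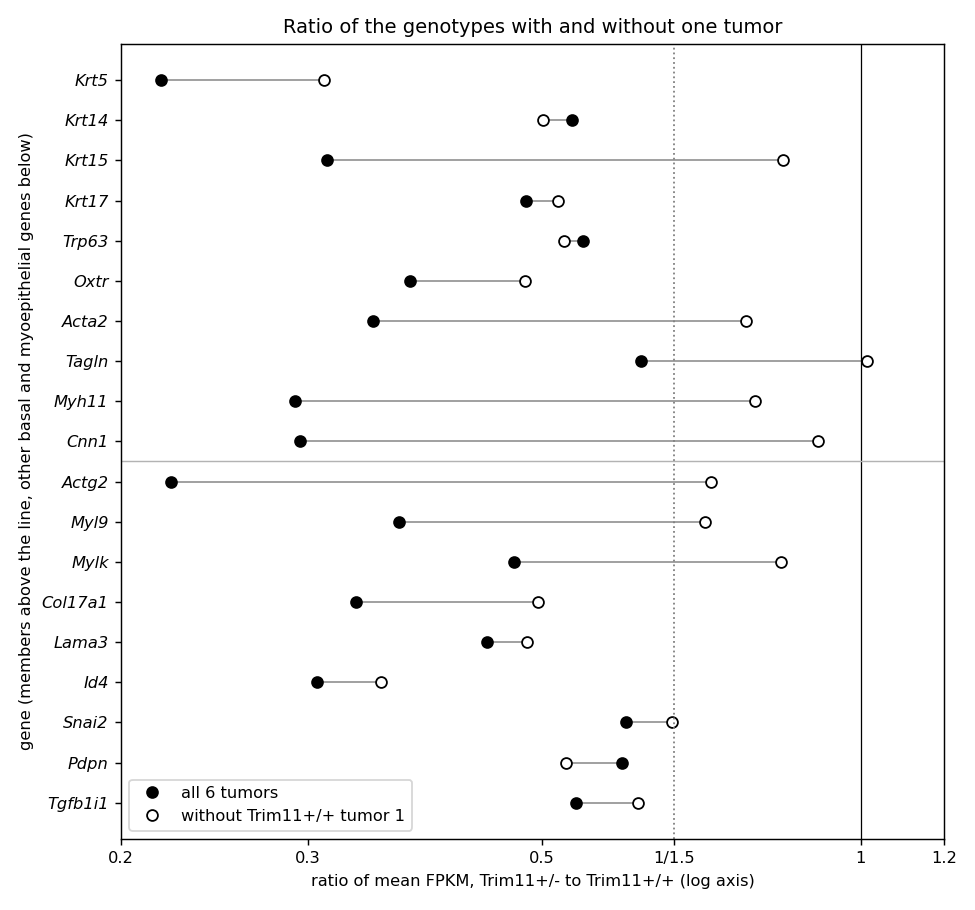
Ratio of mean FPKM, Trim11+/- to Trim11+/+ (horizontal axis, log scale), for the 10 members above the gray line and 9 other basal or myoepithelial genes below it (Actg2, Myl9, Mylk and 6 of the 7 past the fold and p rule), from all 6 tumors (filled) and without Trim11+/+ tumor 1 (open). Dotted and solid vertical lines mark 1/1.5 and 1, and the open circles of Krt15 and the contractile genes lie to the right of the dotted line while those of Krt5, Krt14, Krt17, Trp63 and Oxtr stay left of it.

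Set against the luminal keratins, the 4 basal keratins together came to 21.2%, 13.5% and 20.1% of the summed FPKM of Krt8 and Krt18 in Trim11+/+ tumors 1, 2 and 3. In Trim11+/- tumors 1, 2 and 3 they came to 7.30%, 3.40% and 8.94%. All 3 Trim11+/- tumors were lower, with means of 18.2% ± 4.14 and 6.55% ± 2.85 (SD, n = 3 each). The 4 basal keratins are members, so this difference restates what they were chosen for. Krt8 and Krt18, the keratin pair of luminal cells, summed to 680 to 958 FPKM in Trim11+/+ and 756 to 1071 FPKM in Trim11+/- tumors, and these ranges overlap. The basal keratin sum was 157 ± 57.8 FPKM in Trim11+/+ and 59.8 ± 20.6 FPKM in Trim11+/- tumors (SD, n = 3 each).

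The basal keratins and the contractile genes did not keep a fixed proportion to each other. Contractile genes summed to 1.14, 0.737 and 0.243 times the basal keratins in the Trim11+/+ tumors and to 0.464, 1.35 and 0.906 times in the Trim11+/- tumors. Trim11+/+ tumor 3 had the second highest basal keratin sum, 175 FPKM, and a contractile sum of 42.6 FPKM, the second lowest. Trim11+/- tumor 2 had the lowest basal keratin sum, 36.4 FPKM, and a contractile sum of 49.1 FPKM. Within the keratins Krt5 differed more than Krt14: Krt5 was 1.77, 0.549 and 0.686 times Krt14 in Trim11+/+ and 0.389, 0.303 and 0.461 times in Trim11+/- tumors, with no overlap. Both are per-length FPKM levels, and this ratio was not part of the choice of members but is made of 2 of them.

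**Figure D3:**
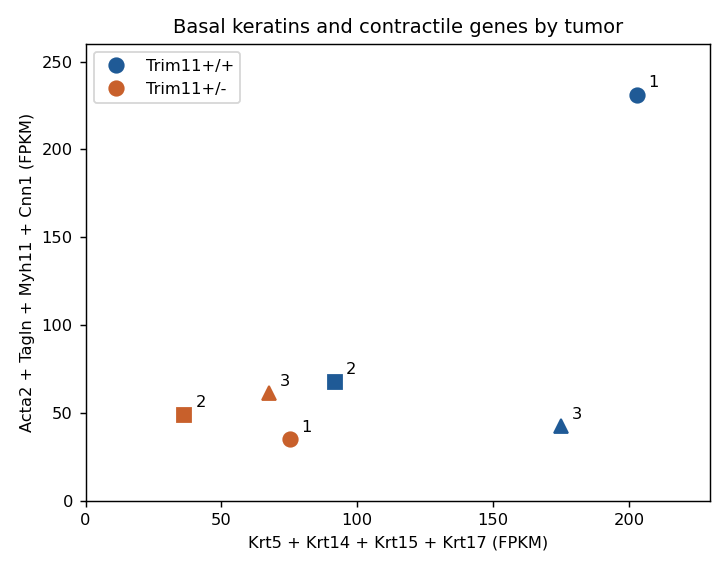
Summed FPKM of the 4 contractile genes (vertical axis) against summed FPKM of the 4 basal keratins (horizontal axis), with 1 point per tumor, numbered within its genotype. Trim11+/+ tumor 1 stands alone at 203 and 231 FPKM, and Trim11+/+ tumor 3, at 175 FPKM of basal keratins, lies at 42.6 FPKM for the contractile genes, among the Trim11+/- tumors.

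Some of these levels may share reads with antisense genes, since the libraries did not keep strand. Tagln shares 62.4% of its exon bases with Gm48529 on the opposite strand, which stood at 47.9, 17.5 and 16.4 FPKM in Trim11+/+ and 11.6, 13.9 and 20.4 FPKM in Trim11+/- tumors. Reads from the bases shared by the 2 genes cannot be told apart, and how such reads were counted is not known. Tagln also shares 5.43% of its bases with Pcsk7. Krt5 shares 129 bases, 5.87% of its exon length, with the antisense gene Gm44323, which stood at 329.9, 96.1 and 175 FPKM in Trim11+/+ and 59.3, 29.1 and 34.6 FPKM in Trim11+/- tumors. Gm44323 ranked the 6 tumors in the same order as Krt5, and reads from the shared bases cannot be told apart. The other 8 members overlap no exon of another annotated gene.

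Further lists held genes of the same layer that are not members: 22 other basal epithelial genes and 16 other myoepithelial contractile genes. Of these 38 genes, 31 passed the filter, 27 of 31 had a log2 difference below 0, and the median was -0.48 (all genes tested, -0.0048, with 50.9% below 0). Some lists of other cell types were also below 0 throughout: 10 of 10 fibroblast genes (median -0.40), 9 of 9 skeletal muscle (-1.24), 6 of 6 leukocyte (-0.34) and 5 of 5 tested epidermal and hair follicle genes (-0.32). The other lists had medians nearer 0. Below 0 were 10 of 17 luminal genes (-0.044), 7 of 9 pericyte and vascular smooth muscle (-0.10) and 6 of 8 endothelial (-0.14). The same held for 5 of 7 adipocyte (-0.19), 6 of 10 proliferation (-0.12) and 3 of 7 milk protein genes (0.14). The lower values were thus not seen in the basal lists alone. At the fold of 1.5 and an unadjusted p under 0.05, 7 of 31 were lower in Trim11+/-, where 1.87% of all genes tested were, and 0 of 31 were higher, where 1.74% were. In limma 0 of 31 passed an adjusted p of 0.05 (lowest adjusted p = 0.594) and 8 had an unadjusted p under 0.05. Without Trim11+/- tumor 2 only 3 of the 7 were still past the rule: Col17a1, Lama3 and Id4.

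Among the basal genes, 6 of 17 tested were past the rule, all lower. Id4, a helix-loop-helix regulator made in basal mammary cells, was at 2.62, 1.97 and 1.63 FPKM in Trim11+/+ and at 0.234, 0.798 and 0.870 FPKM in Trim11+/- tumors. Its log2 difference was -0.92 (SE 0.23, unadjusted p = 0.00525, adjusted p = 0.594 in limma), and the groups did not overlap. Col17a1, a collagen of the hemidesmosome that anchors basal cells, was at 8.08, 3.21 and 3.36 FPKM against 2.12, 1.32 and 1.44 FPKM. Lama3, the alpha chain of a laminin of the basal cells' basement membrane, was at 2.04, 1.38 and 1.83 FPKM against 1.11, 0.688 and 0.537 FPKM. Both had no overlap, with ratios of 0.334 and 0.444 and an adjusted p of 0.634 each in limma. Snai2, the transcription factor Slug, and Pdpn, podoplanin, were past the rule at ratios of 0.6 and 0.595.

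The basal genes with the highest means did not pass the rule. Itga6, the integrin alpha 6 that binds laminin, was at 37.5 to 45.8 FPKM in Trim11+/+ and 41.3 to 55.7 FPKM in Trim11+/- tumors, with a ratio of 1.16. Sox10, a transcription factor of basal and progenitor cells, was the highest gene of the list, at 156 to 172 FPKM and 154 to 258 FPKM, a ratio of 1.22. Sfn, 14-3-3 sigma, had a ratio of 0.731, with 37.9 to 53.1 FPKM against 24.2 to 38.9 FPKM. Of the other basal genes not past the rule, Cdh3, P-cadherin, and Lgr6, a receptor of the Lgr family, had ratios of 0.406 and 0.710 with no overlap, and both were named after their values were seen. In the rest of those tested, Itgb4, Itga3, Dst, Egfr, Lamb3 and Krt6a, the genotypes overlapped. Their ratios were 0.947, 0.909, 0.870, 0.928, 0.640 and 0.308.

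Among the contractile genes, 1 of 14 tested was past the rule, against 3.61% of all genes tested. This was Tgfb1i1, the focal adhesion protein Hic-5, at 2.87, 2.45 and 1.55 FPKM against 1.14, 1.10 and 1.45 FPKM, a ratio of 0.538 (adjusted p = 0.693 in limma). Tpm1, the tropomyosin with the highest mean of the list, was at 54.8 to 67.7 FPKM in Trim11+/+ and 41.8 to 61.4 FPKM in Trim11+/- tumors, a ratio of 0.858. Actg2, Myl9 and Mylk, smooth muscle actin gamma, a regulatory myosin light chain and its kinase, were looked up after their values were seen. Trim11+/+ tumor 1 was the highest for each, at 6.88, 67.6 and 9.86 FPKM, while the other 5 tumors were at 0.289 to 0.948, 10.3 to 21.2 and 1.92 to 3.56 FPKM. Their ratios of 0.223, 0.366 and 0.470 became 0.723, 0.713 and 0.841 without that tumor. The rest of the tested list did not share this pattern. Trim11+/+ tumor 1 was highest for Cald1, Mrtfa and Tgfb1i1, but at only 1.04, 1.09 and 1.17 times the next tumor. Another tumor was highest for Lmod1, Tpm1, Tpm2, Smtn, Des, Srf, Cnn2 and Mme.

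Markers of other cell types were read in the same tumors. Among luminal markers, Krt8 had a ratio of 0.995, Krt18 of 1.30 and Krt19 of 0.669. The fold and p rule was passed by 0 of 17 tested luminal genes, against 3.61% of all genes tested. The luminal list summed to 1994 to 2434 FPKM in Trim11+/+ and 1854 to 2431 FPKM in Trim11+/- tumors. Epidermal markers, which skin in a sample would bring, were low: Krt1 and Krt2 reached at most 0.745 and 0 FPKM, Krt10 was at 1.14 to 3.30 FPKM, and the list of 16 genes summed to 9.81 to 21.2 FPKM in Trim11+/+ and 6.58 to 13.6 FPKM in Trim11+/- tumors. Of 5 genes of this list tested 0 were past the rule. Some hair follicle genes, named after their values were seen, stood apart in Trim11+/+ tumor 3, where Krt14, Krt17 and Trp63 were highest. Krt27 was at 1.99 FPKM there and at most 0.30 FPKM elsewhere. Tchh was at 3.17 and at most 0.703 FPKM, and Krt25 at 1.05 and 0 FPKM. Krt71, a hair root sheath keratin with a ratio of 0.413, was instead highest in Trim11+/+ tumor 1. It was at 3.01 FPKM there and at 1.55 FPKM in Trim11+/+ tumor 3. Their part in the basal keratin levels was not tested.

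Cells other than myoepithelium also make contractile genes. The 10 pericyte and vascular smooth muscle markers summed to 70.6 to 74.4 FPKM in Trim11+/+ and 54.3 to 75.9 FPKM in Trim11+/- tumors, and 74.4 FPKM in Trim11+/+ tumor 1. Rgs5, Cspg4 and Pdgfrb, pericyte markers, were at 12.2, 0.537 and 4.23 FPKM in that tumor, within the range of the other 5. Mcam, the gene of highest mean in the list, was at 35.9 FPKM in that tumor and at most 30.2 FPKM elsewhere. Abcc9 and Cox4i2 went the other way and were lowest in that tumor, at 1.01 and 0.348 FPKM. Endothelial markers (Pecam1, Cdh5 and Kdr first in the list) summed to 21.4 to 31.2 FPKM and 16 to 31.6 FPKM, with 21.4 FPKM in Trim11+/+ tumor 1. Fibroblast markers summed to 235 to 473 FPKM and 204 to 389 FPKM. Trim11+/+ tumor 1 had the lowest of the 3 Trim11+/+ sums, 235 FPKM, and Col1a1, Col1a2 and Col3a1, the collagens of fibroblasts, were at 30.5, 24.3 and 59.0 FPKM there. The part of these cells in the contractile levels was not tested beyond these values.

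Skeletal muscle and fat varied most. The 9 skeletal muscle genes summed to 38.5 to 279 FPKM in Trim11+/+ and 12.8 to 347 FPKM in Trim11+/- tumors, and Acta1, skeletal actin, was at 10.1, 46.8 and 110 FPKM in Trim11+/+ and 104, 0.370 and 0.0606 FPKM in Trim11+/- tumors. Ckm and Myh1, also muscle genes, were lowest in the same tumors, Trim11+/- 2 and 3. The muscle sum was highest in Trim11+/- tumor 1, where Acta2 was lowest. Adipocyte markers, of which Adipoq, Plin1 and Fabp4 head the list, summed to 55.9 to 404 FPKM and 27.6 to 337 FPKM. Milk protein genes, headed by Csn1s1, Csn1s2a and Csn2, summed to 1707 to 3709 FPKM and 1390 to 2635 FPKM. Their part in the basal values was not tested.

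Leukocyte markers summed to 41.3 to 58.0 FPKM in Trim11+/+ and 34.0 to 40.0 FPKM in Trim11+/- tumors, without overlap, and their part in the basal values was not tested. Ptprc, the pan-leukocyte CD45, had a ratio of 0.851, Cd3e reached at most 0.265 FPKM, and Cd4 had a ratio of 0.504. Of the list 1 of 6 tested genes passed the rule, S100a9, a ratio of 0.243 that was named after its value was seen. S100a8, also in the list, did not pass and had a ratio of 0.715. It overlapped, at 10.2 to 34.0 FPKM in Trim11+/+ and 15.8 to 18.2 FPKM in Trim11+/- tumors. Mki67, Top2a and Ccnb1, first in the proliferation list, had ratios of 1.11, 1.05 and 1.01. Of the 10 proliferation genes, however, 6 had a log2 difference below 0, and the median was -0.12. The list summed to 333, 211 and 214 FPKM in Trim11+/+ tumors 1, 2 and 3 and to 201 to 297 FPKM in the Trim11+/- tumors. Across the 10 lists of other cell types and states, S100a9 was the only gene past the rule. These lists are short, and 3.61% of all genes tested met the rule.

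**Figure D4:**
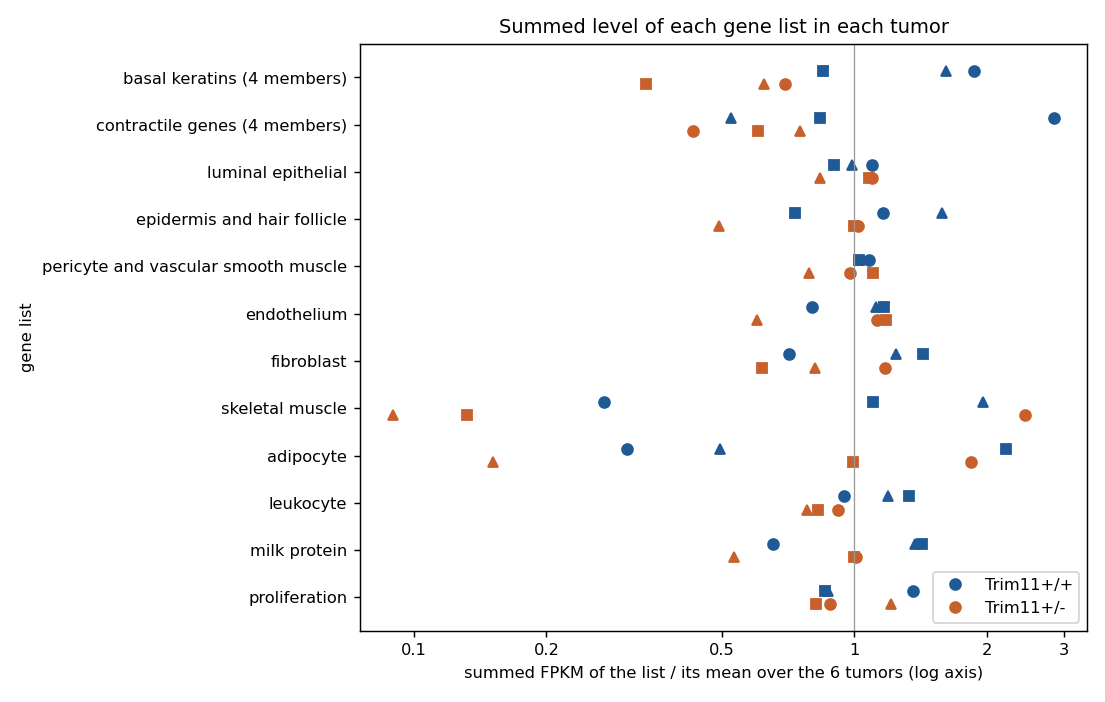
Summed FPKM of each gene list in each tumor divided by the mean of the 6 tumors (horizontal axis, log scale), with Trim11+/+ in blue and Trim11+/- in orange, and circle, square and triangle for tumors 1, 2 and 3. Basal keratins have no overlap between genotypes, the contractile genes have Trim11+/+ tumor 1 apart from the other 5, and skeletal muscle and adipocyte markers spread widest within both genotypes.

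Genes whose profile over the 6 tumors lay closest to that of the members were sought among 8046 genes with a mean of at least 5 FPKM, by the root-mean-square difference of centered log2(FPKM + 1) values from the median profile of the 7 members at that level. Wfdc12 was nearest at 0.23, against a median of 0.69 over all candidates, and Fam110a, Vcan, Ggt1, Cad, Dctd, Pltp and Mex3d followed up to 0.36. Wfdc12, a small secreted protease inhibitor, was at 30.2, 15.7 and 16.1 FPKM in Trim11+/+ and 5.57, 7.19 and 9.73 FPKM in Trim11+/- tumors. Vcan, the matrix proteoglycan versican, was at 12, 5.80 and 4.55 FPKM and 4.30, 3.24 and 4.92 FPKM. None of the 8 belonged to the basal or myoepithelial lists. The floor of 5 FPKM kept many genes of those lists out of the search, however. Col17a1, Mylk, Snai2, Actg2, Cdh3, Id4 and Lama3 were among them, so their absence was set by the filter.

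The human orthologs of the 10 markers were read in the 7 MDA-MB-231 libraries, which had no part in the choice of members. TRIM11 was at 12.6 FPKM in Control, which received a guide to GFP, 13.4 and 10.6 FPKM in the libraries labelled TRIM11-KD 1 and 2, and 16.1 and 9.38 FPKM in the libraries labelled DKD 1 and 2, the double knockdown made with the same TRIM11 guides together with KDM5C guide 2. Its mRNA was thus not lower in the libraries labelled TRIM11-KD 1 and DKD 1, and directions from those labels are given as labels only. The paper checked its knockdown lines at the protein level by western blot, which these mRNA values do not measure. KDM5C was at 30.3 FPKM in Control, 20.6 and 21.4 FPKM in KDM5C-KD 1 and 2, and 18.8 and 22.7 FPKM in DKD 1 and 2. A single Control library was measured, so differences from it have no replicate check.

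KRT5 was listed at 0 in all 7 libraries, and KRT14, TP63 and MYH11 stayed at or under 1.22, 0.355 and 0.215 FPKM. Of the orthologs, 6 of 10 passed the filter. TAGLN was the most abundant, at 14.3 to 42.1 FPKM, followed by OXTR at 2.62 to 25.7 FPKM. KRT17 was at 8.16 FPKM in Control, 11.6 and 3.44 FPKM in TRIM11-KD, 2.64 and 0.740 FPKM in KDM5C-KD, and 1.56 and 2.11 FPKM in DKD. CNN1 was at 1.11 FPKM in Control, 0.308 and 0.438 FPKM in TRIM11-KD, 0.470 and 2.78 FPKM in KDM5C-KD, and 0.133 and 0.722 FPKM in DKD.

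Both libraries of a label lay at least 1.5 times below Control in 1 of 6 orthologs labelled TRIM11-KD (CNN1; 2.69% of 12636 genes), 1 of 6 labelled KDM5C-KD (KRT17; 4.12%) and 3 of 6 labelled DKD (KRT17, CNN1 and the entry that KRT15 shares with MIR6510; 5.02%). These comparisons share the 1 Control library, and 0 of 6 orthologs lay that far above it in both TRIM11-KD (3.25%), KDM5C-KD (5.22%) or DKD (5.71%) libraries. Between DKD and KDM5C-KD 0 of 6 orthologs passed an adjusted p of 0.05 in limma (0% of 12634 genes), and 1, ACTA2, had an unadjusted p under 0.05 (11.7% of genes), higher in DKD by a log2 difference of 0.49 (SE 0.19, adjusted p = 0.411 in limma). Between DKD and TRIM11-KD 0 of 6 passed (0.00792% of genes), and 1, KRT17, had an unadjusted p under 0.05 (7.02% of genes), with a log2 difference of -1.41 (SE 0.55, adjusted p = 0.710 in limma). Without the library labelled TRIM11-KD 1, whose TRIM11 mRNA was not lower, this KRT17 difference was -0.65, and without TRIM11-KD 2 it was -2.16. Of the 4 basal keratins, KRT17 and the KRT15 entry passed the filter in the line.

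**Figure D5:**
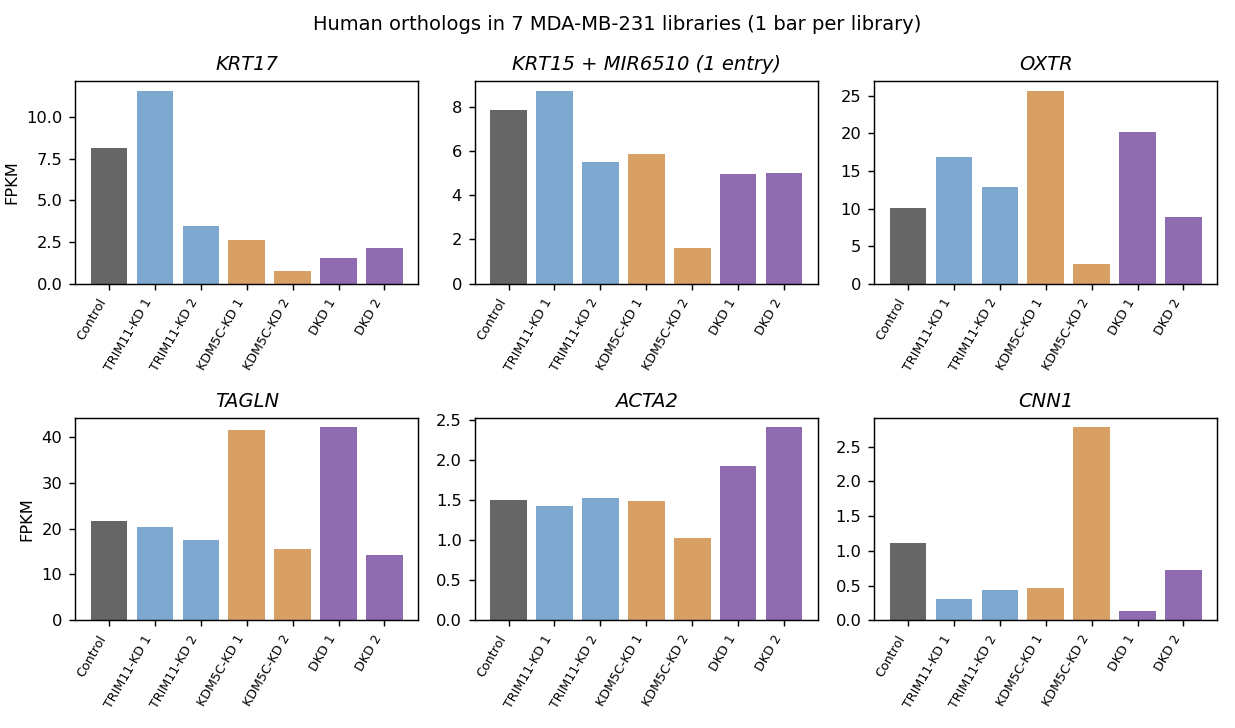
FPKM (vertical axis, from 0) of the 6 human orthologs with a mean of at least 0.5 FPKM in each of the 7 MDA-MB-231 libraries, with 1 bar per library. KRT17 was at 0.740 to 2.64 FPKM in the 4 KDM5C-KD and DKD libraries against 8.16 FPKM in Control, and OXTR and TAGLN differed between the 2 libraries of KDM5C-KD and of DKD.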

How the data were processed

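Poly(A) RNA was sequenced from 6 mouse tumors and 7 libraries of a human cell line, with non-directional kits and paired reads. The authors trimmed reads, mapped them to mm10 or hg19 with HISAT2 2.1.0 and computed expression with Cufflinks, and deposited FPKM per gene. The deposited tumor FPKM, multiplied by exon length and library total, gave whole reads within 0.01 for 28447 of 28792 genes checked (98.8%), and depth (8793199 to 11117125 reads) was recovered in this way. For the cell line the depth is unknown. Repeated symbols were reduced to the row of highest mean, leaving 55228 of 55335 tumor rows and 24523 of 26006 cell line rows, with 27 symbols turned into dates left out of the latter.

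Values were tested as log2(FPKM + 1) with limma 3.58.1 in R 4.3.3 (lmFit, eBayes with a trend, two-sided, Benjamini-Hochberg adjustment) over all genes with a mean of at least 0.5 FPKM. This scale understates changes of low genes. A gene counted as past the rule when the group means differed 1.5-fold or more and an unadjusted p under 0.05. The code was tested on simulated data. Members and lists were chosen with earlier results of these data known. Genes named were Trim11, the members and orthologs, list genes past the rule, the 4 list genes of highest mean, the first 3 of each other list and the 8 nearest profiles. Labels do not say whether tumors with 1 genotype came from separate mice, so p-values measure the spread between these samples. A list gene past the rule and some sequences are not reported here. Other settings are given after the report.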

Additional observations from a re-analysis of the deposited data

How the results depend on the processing

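The 10 members had a lower mean log2 level in Trim11+/- under every alternative run, but Tagln by only -0.0054 without Trim11+/+ tumor 1. Their median log2 difference ran from -1.36 to -0.56 when 1 tumor was left out, the latter without Trim11+/+ tumor 1. Leaving out 1 tumor, the counts over all genes ran from 295 to 467 lower and 272 to 443 higher, and the other basal and myoepithelial genes past the rule from 3 to 9 lower, with 0 higher. With no filter on low values 491 genes were lower and 479 higher, and at a fold of 2, 161 and 164, with 3 of the other basal and myoepithelial genes lower. These follow from more genes tested and a stricter rule. With the replicate number as a block, the count of other basal and myoepithelial genes was 4, against 7. The correlations of same-numbered deviations were -0.33, 0.038 and -0.13, which show no sign of pairing but cannot exclude it. Among the list genes past the rule, 24 recomputed p-values no longer passed 0.05, those of Snai2, Pdpn and Tgfb1i1 among them. Ortholog differences, none of which passed an adjusted p, changed sign in 11 cases. Leaving out 1 library, DKD against KDM5C-KD ran from -0.37 to 0.70 for KRT17, -0.20 to 1.21 for KRT15, -0.88 to 2.00 for OXTR and -0.80 to 0.70 for TAGLN. DKD against TRIM11-KD ran from -0.28 to 0.33 for CNN1, -0.67 to 0.42 for OXTR and -0.38 to 1.12 for TAGLN, and with a pseudocount of 0.1 CNN1 was at -0.098. The orthologs had 0 calls between the knockdowns under every alternative. With 3 tumors a genotype, small differences were not detectable, and the low reads of Cnn1 and Krt15 add counting error.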
